A study of Rattus norvegicus with 6 samples.

Results

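The classical antiviral effectors are genes that interferons, the cytokines of antiviral defence, are known to induce. Many of their products act directly on viruses. The set held 10 genes by name: Rsad2, Cmpk2, Mx1, Mx2, Ifit1, Ifit2, Ifit3, Bst2, Isg20 and Ifi44. A gene entered where a probe set of the array was annotated to it alone, and 9 of the 10 did, out of 18166 genes represented in the same way. Each of the 9 had a single such probe set. Bst2, which encodes tetherin, was not analysed here. The arrays were hybridised with biotin-labelled RNA from cerebral arteries of male rats. The 6 arrays fall into 2 groups. In 3 of them, numbered 1, 4 and 5, the arteries came from rats 6 hours into subarachnoid haemorrhage (SAH), a bleed into the fluid-filled space around the brain. The other 3, numbered 6, 7 and 8, held arteries of sham-operated rats. The labels give neither a time after surgery for the sham rats nor a strain or age, and do not say whether an array held RNA of 1 animal or of several, so the p-values reflect only how these samples spread, which may be technical. The comparison asks which transcripts of the artery differ after the bleed.

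Type I interferons signal through a receptor and the kinases Jak1 and Tyk2 to a transcription factor complex that holds Stat2 and Irf9 and binds the interferon-stimulated response element in the promoters of its target genes. Several products of these targets block viruses at separate steps. Viperin makes a chain-terminating ribonucleotide, the Mx proteins are large GTPases that trap viral components, IFIT proteins bind foreign RNA or translation factors, and Isg20 is an exonuclease. In blood vessels, endothelial cells, smooth muscle cells and resident or arriving leukocytes can all respond to interferon, and in RNA from whole arteries a change in the number of such cells and a change in the RNA per cell cannot be told apart.

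The promoters of 6 of the 9 genes were among the RefSeq sequences used here (build GRCr8), each running from 250 bases before to 50 bases after the start of transcription. The core of the response element, which is the run GAAA followed by another GAAA after any 2 bases, was searched on both strands, and 4 of the 6 promoters held it, against 3.77% of 27457 rat promoters of the same length. The element was also in 43.8% of 32 promoters of other antiviral effectors and in 29.7% of 148 promoters of genes that rose. The 4 promoters are printed because they held the element, and the Cmpk2 promoter because Cmpk2 is the neighbour of Rsad2 and had no match. Capitals mark the matches. The windows are Rsad2 at chr6:48788071-48788370 on the minus strand, Cmpk2 at chr6:48802600-48802899 on the plus strand, Ifit3 at chr1:241527076-241527375 on the plus strand, Isg20 at chr1:142239809-142240108 on the plus strand and Ifi44 at chr2:243303791-243304090 on the minus strand. Each is printed in the direction of its gene.
Rsad2: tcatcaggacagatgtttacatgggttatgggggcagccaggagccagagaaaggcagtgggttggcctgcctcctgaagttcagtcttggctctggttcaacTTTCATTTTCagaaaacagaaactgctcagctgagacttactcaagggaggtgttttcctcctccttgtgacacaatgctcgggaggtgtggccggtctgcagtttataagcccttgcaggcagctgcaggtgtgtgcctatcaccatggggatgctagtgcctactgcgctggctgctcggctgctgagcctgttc
Cmpk2: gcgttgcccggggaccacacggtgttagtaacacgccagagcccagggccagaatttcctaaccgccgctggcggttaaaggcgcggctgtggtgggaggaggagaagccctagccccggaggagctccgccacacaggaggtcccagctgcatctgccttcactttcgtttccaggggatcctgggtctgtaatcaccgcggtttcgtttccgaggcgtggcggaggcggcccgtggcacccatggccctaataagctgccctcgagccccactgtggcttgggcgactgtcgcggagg
Ifit3: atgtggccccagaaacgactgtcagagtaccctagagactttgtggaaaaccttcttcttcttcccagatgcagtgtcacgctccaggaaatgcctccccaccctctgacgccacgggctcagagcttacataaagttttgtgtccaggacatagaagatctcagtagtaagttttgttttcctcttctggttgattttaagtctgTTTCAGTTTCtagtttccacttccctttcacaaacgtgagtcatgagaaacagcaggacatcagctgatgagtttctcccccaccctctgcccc
Isg20: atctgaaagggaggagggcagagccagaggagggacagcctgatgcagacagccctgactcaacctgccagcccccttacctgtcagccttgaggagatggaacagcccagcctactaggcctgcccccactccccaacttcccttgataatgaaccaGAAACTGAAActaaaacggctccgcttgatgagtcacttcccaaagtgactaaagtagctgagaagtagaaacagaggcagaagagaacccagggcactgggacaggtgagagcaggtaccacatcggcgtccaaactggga
Ifi44: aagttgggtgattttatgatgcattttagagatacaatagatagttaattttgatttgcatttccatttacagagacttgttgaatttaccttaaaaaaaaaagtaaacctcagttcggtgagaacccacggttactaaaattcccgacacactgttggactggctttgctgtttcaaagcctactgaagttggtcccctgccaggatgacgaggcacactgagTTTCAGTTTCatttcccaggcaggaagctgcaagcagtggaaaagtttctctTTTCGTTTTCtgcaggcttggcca
The match lay 147 to 138 bases before the start in Rsad2, 92 to 83 bases before it in Isg20 and 44 to 35 bases before it in Ifit3. Ifi44 held a match 26 to 17 bases before the start and another 26 to 35 bases after it. The Mx1 window held no match either. A variant with a single base between the repeats was searched after the Cmpk2 letters had been seen. It occurred 2 times in the Cmpk2 promoter and 1 time in the Ifi44 promoter. That made 2 of the 6 promoters, against 3.41% of all promoters, 15.6% of those of other antiviral effectors and 10.1% of those of genes that rose. A match is a run of letters and not a measured binding site.

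The antiviral effectors were higher after SAH. Of the 9 measured genes 7 rose, none fell, and Mx2 and Ifit1 did not pass the test, which was limma's moderated test over all 36495 probe sets with a Benjamini-Hochberg adjusted p under 0.05. Over all 18166 genes 0.963% rose and 0.33% fell by the same rule. The rises ran from 3.42-fold for Ifi44 to 12.2-fold for Rsad2. For 8 of the 9 genes the lowest SAH array lay above the highest sham array, by 1.29 to 3.10 log2 units. Over all genes this held for 11.4%. The median log2 difference, SAH minus sham, was 2.37 over the 9 genes and -0.01 over all genes. Among all genes ordered by that difference, 3 of the antiviral effectors stood in the top 10 and 8 in the top 100. The set was chosen with earlier results of these data known, so these shares and ranks only describe it.

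**Figure D1:**
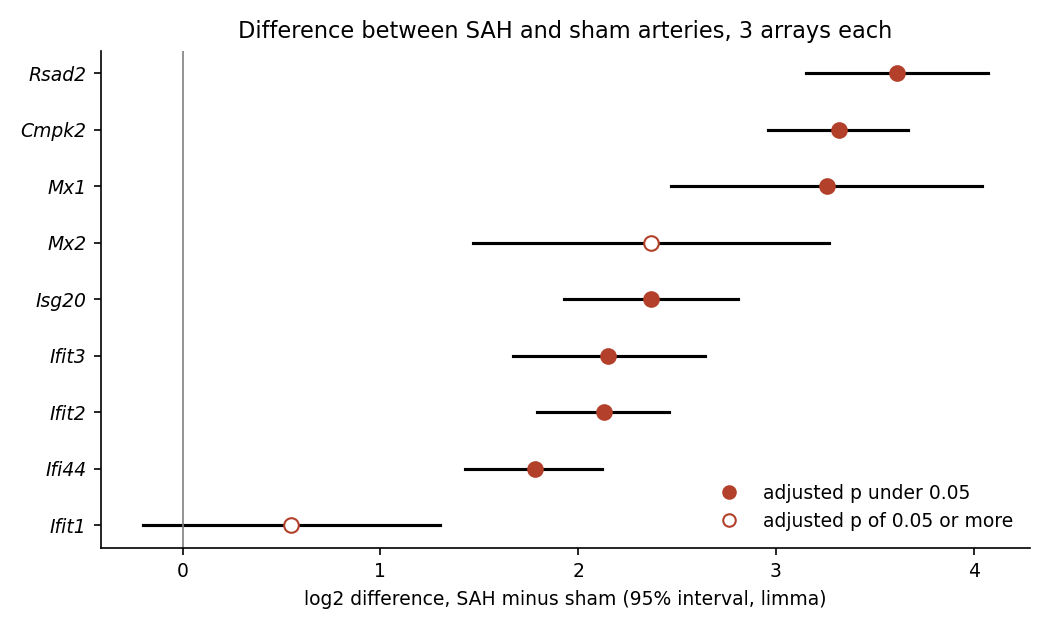
Log2 difference between SAH and sham arteries for each antiviral effector (x axis; points are limma estimates from 3 arrays a group, bars the 95% intervals, filled points those with an adjusted p under 0.05). Rsad2, Cmpk2 and Mx1 lie above 3, the interval of Ifit1 reaches below 0, and Mx2 has the widest interval.

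Rsad2, the viperin gene, read 12.25, 12.88 and 12.82 in SAH arrays 1, 4 and 5, against 8.82, 9.14 and 9.15 in sham arrays 6, 7 and 8 (log2 values). The groups were 3.10 log2 units apart at their nearest points, and each stayed within 0.63. The difference was 3.61 ± 0.19 (SE; 95% interval 3.15 to 4.07; n = 3 each; limma adjusted p = 0.00189), the second largest of all genes. Cmpk2 encodes a mitochondrial nucleotide kinase whose product feeds the viperin reaction, and the genes lie side by side in the rat genome. Cmpk2 read 12.83, 13.21 and 13.18 in the SAH arrays, against 9.59, 9.94 and 9.74 in the sham arrays. The SAH and sham arrays did not overlap, and the spread within either group was under 0.4. The difference was 3.32 ± 0.15 (SE; 95% interval 2.96 to 3.67; n = 3 each; limma adjusted p = 0.00189).

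In both neighbours SAH array 1 was the lowest of its group and array 4 the highest. Measured from the sham mean of each gene, Rsad2 stood 0.14, 0.39 and 0.36 above Cmpk2 in SAH arrays 1, 4 and 5. The 95% intervals of the differences overlapped. The fold values were 12.2 (95% interval 8.90 to 16.8) for Rsad2 and 9.96 (7.80 to 12.7) for Cmpk2.

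The Mx genes encode dynamin-like GTPases, in rodents with Mx1 in the nucleus and Mx2 in the cytoplasm. Mx1 read 12.98, 13.30 and 13.19 in the SAH arrays, against 9.76, 10.67 and 9.27 in the sham arrays. The groups were far apart, and the sham arrays spread over 1.40 log2 units while the SAH arrays spread over 0.32. The difference was 3.26 ± 0.33 (SE; 95% interval 2.47 to 4.04; n = 3 each; limma adjusted p = 0.0116), or 9.58-fold. Mx2 read 12.42, 12.91 and 13.37 in the SAH arrays, against 10.70, 11.12 and 9.76 in the sham arrays. Here too no SAH array reached down to a sham array, with 1.29 between them. The difference of 2.37 ± 0.38 (SE; 95% interval 1.47 to 3.27; n = 3 each) had a limma adjusted p of 0.0534. This p was 0.0223 when dim probe sets were left out, 0.0365 with trend and robust options, 0.0460 with array weights and 0.0368 without SAH array 1, and it was 0.0836 to 0.214 with any other array left out.

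The sham arrays took the same order in both Mx genes, with array 7 highest and array 8 lowest. In the 6 genes other than Mx1, Mx2 and Ifit1 the sham arrays spread over 0.14 to 0.58 only. Mx1 and Mx2 are similar in sequence, and probe sequences were not used here, so signal shared between them cannot be told from signal of each. Without sham array 7 the Mx1 difference was 3.65 ± 0.19 (SE), and without sham array 8 it was 2.94 ± 0.28. Mx1 kept its call in those fits (limma adjusted p = 0.0212 and 0.0308) and without SAH array 1 (0.0160). It lost the call without SAH array 4 (0.0858), SAH array 5 (0.0612) or sham array 6 (0.0850), with differences of 3.19, 3.24 and 3.19.

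**Figure D2:**
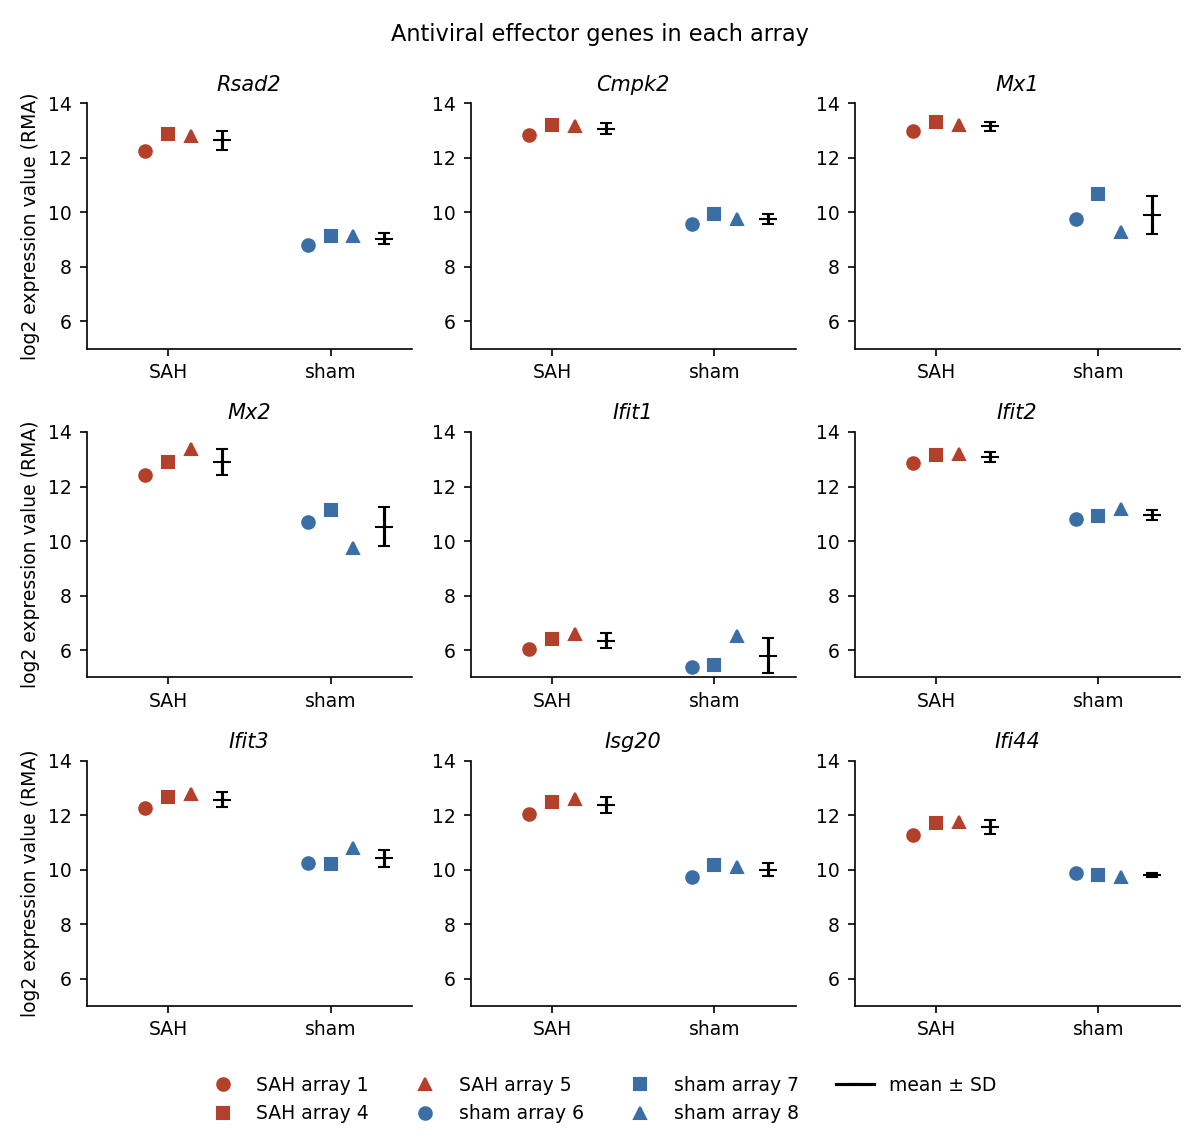
Log2 expression values (y axis, RMA values as deposited) of the 9 antiviral effectors in each SAH array (red) and each sham array (blue), with the mean and SD of each group in black. The groups are apart in every panel but that of Ifit1, and the sham arrays of Mx1 and Mx2 spread more than those of Rsad2, Cmpk2 or Ifi44.

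The IFIT genes encode proteins built of tetratricopeptide repeats, and some of these proteins bind RNA lacking the marks of host transcripts. Ifit2 read 12.88, 13.14 and 13.21 in SAH arrays 1, 4 and 5, against 10.79, 10.90 and 11.16 in sham arrays 6, 7 and 8. The lowest SAH array was 1.72 above the highest sham array. The difference was 2.13 ± 0.14 (SE; 95% interval 1.79 to 2.46; n = 3 each; limma adjusted p = 0.00306), or 4.37-fold. Ifit3, which in human cells is a partner that stabilises IFIT1 on RNA, read 12.25, 12.66 and 12.78 in the SAH arrays, against 10.24, 10.21 and 10.78 in the sham arrays. The arrays of the groups did not overlap, and sham array 8 was the highest sham array, as in Ifit2. The difference was 2.15 ± 0.21 (SE; 95% interval 1.67 to 2.64; n = 3 each; limma adjusted p = 0.00946), or 4.45-fold.

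Ifit2 and Ifit3 are neighbours, and measured from the sham means they differed by -0.09, 0.06 and 0.11 (Ifit3 minus Ifit2) in SAH arrays 1, 4 and 5. Ifit2 passed in all 6 fits that left out an array (limma adjusted p at most 0.0308). Ifit3 passed in 3 of them and did not without SAH array 4 (0.0734), sham array 6 (0.0682) or sham array 7 (0.0600), where its difference was 2.11, 2.07 and 2.05.

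Ifit1 stood apart from the other 8. It read 6.02, 6.40 and 6.58 in the SAH arrays, against 5.39, 5.45 and 6.52 in the sham arrays. Sham array 8 lay above SAH arrays 1 and 4, so the groups overlapped, and every value was below the median of its own array, which lay between 7.31 and 7.37. The difference was 0.55 ± 0.32 (SE; 95% interval -0.20 to 1.30; n = 3 each; limma adjusted p = 0.497). That interval lies below those of Ifit2 and Ifit3. Without sham array 8 the difference was 0.91 ± 0.18 (SE), with a limma adjusted p of 0.151. In the RefSeq table the rat Ifit1 gene lies within the span of the related gene Ifit1bl, which was not analysed here.

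Isg20 encodes an exonuclease that degrades single-stranded RNA. It read 12.04, 12.48 and 12.60 in the SAH arrays, against 9.74, 10.16 and 10.11 in the sham arrays. No array of either group came within 1.88 of the other group. The difference was 2.37 ± 0.19 (SE; 95% interval 1.93 to 2.81; n = 3 each; limma adjusted p = 0.00491), or 5.16-fold. Ifi44 encodes an interferon-induced protein first described with microtubular aggregates in the livers of chimpanzees with hepatitis. It read 11.28, 11.70 and 11.73 in the SAH arrays, against 9.86, 9.81 and 9.72 in the sham arrays. The sham arrays lay within 0.14 of each other and all SAH arrays lay at least 1.42 above them. The difference was 1.78 ± 0.14 (SE; 95% interval 1.43 to 2.12; n = 3 each; limma adjusted p = 0.00539), or 3.42-fold, and its interval lay below those of Rsad2, Cmpk2 and Mx1. Rsad2, Cmpk2, Ifit2, Isg20 and Ifi44 were called in each of the 6 fits that left out an array.

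**Figure D3:**
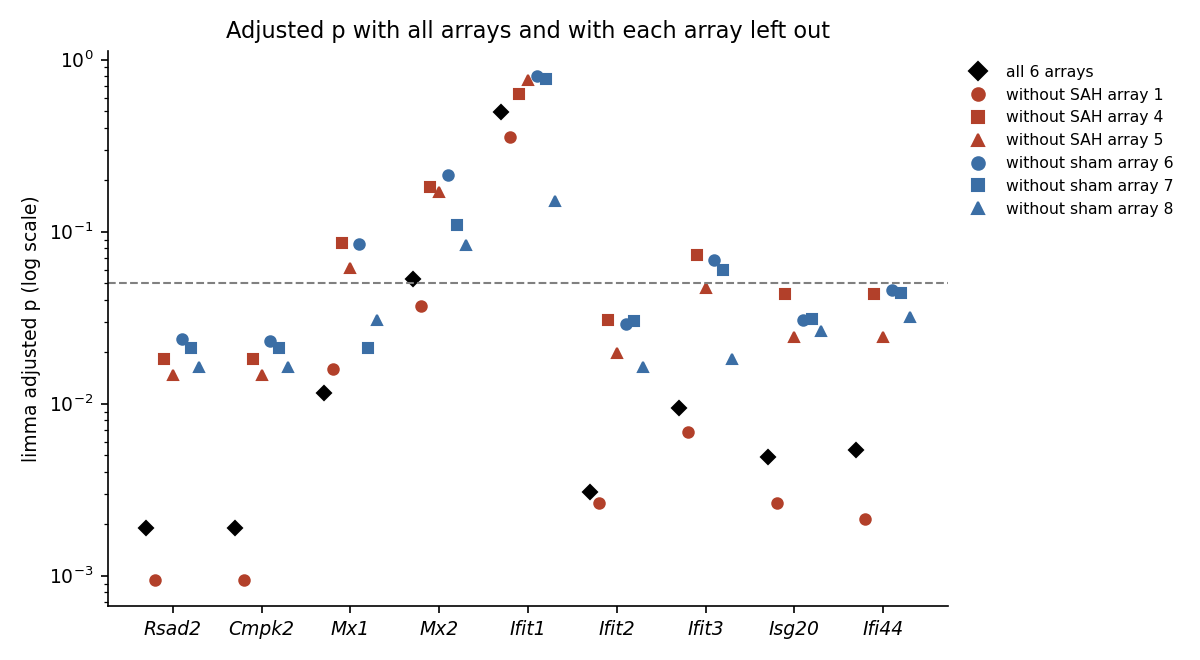
Limma adjusted p (y axis, log scale) of each antiviral effector with all 6 arrays (black), without each SAH array (red) and without each sham array (blue). The dashed line is the threshold of 0.05. Rsad2, Cmpk2, Ifit2, Isg20 and Ifi44 stay below it in every fit shown, Mx1 and Ifit3 cross it in 3 fits each, and Ifit1 stays above it.

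Leaving out an array moved both the count of antiviral effectors past the threshold and the share of all genes that rose. The count was 8 without SAH array 1, where 2.68% of all genes rose, and 5 without SAH array 4 (0.22%). It was 6 without SAH array 5 (0.314%) and 5 with sham array 6 left out (0.16%). Dropping sham array 7 gave 6 (0.281%), and dropping sham array 8 gave 7 (0.495%). The median difference over the 9 genes stayed between 2.14 and 2.53.

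Genes that flank the antiviral effectors on the chromosome, and are not among them, differed by less, apart from Ifi44l. In the RefSeq table the nearest protein-coding genes on either side came to 12, of which 11 were measured. Of these only Ifi44l, an interferon-induced relative and neighbour of Ifi44, rose (2.33 ± 0.19 (SE), 5.03-fold, limma adjusted p = 0.00551). The other 10 differed by -0.45 to 0.51 log2 units and did not pass. In 4 of the 10, Aen, Bace2, Lipa and Tmprss2, all SAH arrays lay above all sham arrays, and these 4 had an unadjusted p under 0.05. Over all genes 11.4% lay wholly higher in SAH arrays. An unadjusted limma p under 0.05, in either direction, was found for 3385 of 18166 genes. The 10 include Fam3b, which lies between Mx1 and Mx2 and read 6.74, 6.50 and 6.67 in the SAH arrays against 6.77, 6.77 and 6.67 in the sham arrays. These flanking genes were chosen after the values of the antiviral effectors were known.

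**Figure D4:**
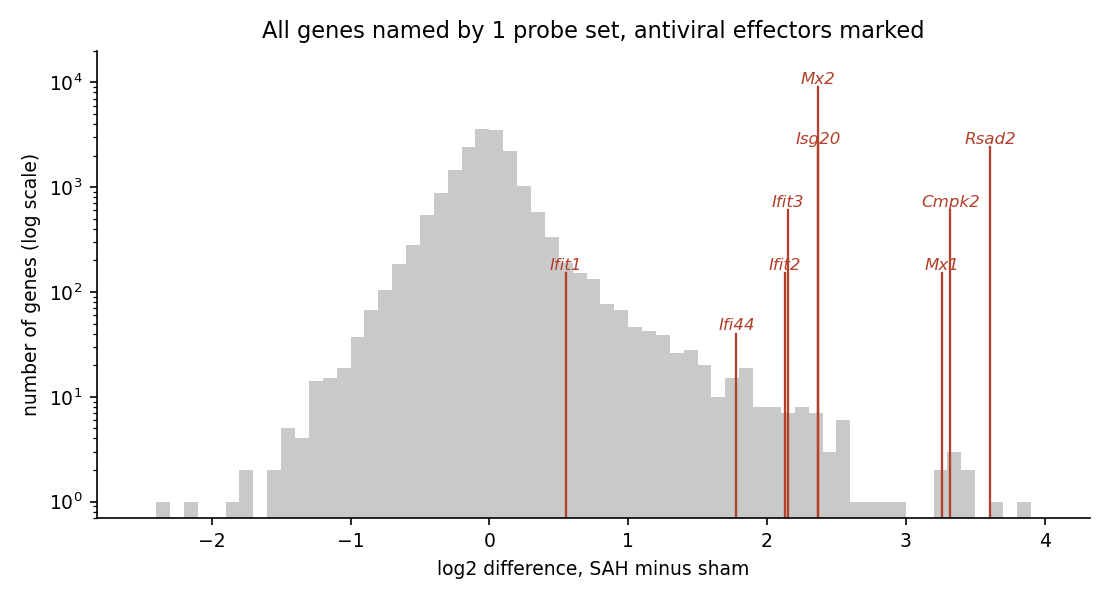
Number of genes (y axis, log scale) by log2 difference, SAH minus sham (x axis, bins of 0.1), over all 18166 genes, with the antiviral effectors as red lines whose height only sets the labels apart. Of the 9, 8 lie beyond 1.7 in the thin right tail, and Ifit1 lies nearer the body of the distribution, at rank 820 of all genes.

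Within the SAH group, array 1 was the lowest of the 3 in all 9 genes, and array 5 was the highest in 6 and array 4 in 3. Measured from each gene's sham mean, the median of the 9 genes was 1.93 in SAH array 1, 2.38 in array 4 and 2.59 in array 5, against -0.17 in sham array 6, 0.10 in array 7 and 0.11 in array 8. The mean of 12 probe sets for the bacterial labelling controls was also lowest in SAH array 1, at 6.79, 7.59 and 7.46 in SAH arrays 1, 4 and 5 against 7.03, 7.06 and 7.04 in the sham arrays. Its part in the differences among SAH arrays was not tested. Every SAH array, array 1 included, lay at least 1.29 above all sham arrays in the 8 genes without overlap. Over the 6 arrays, each of the 9 genes was set against the mean of the other 8, a comparison in which the points share the 2 groups. Pearson's r was 0.932 to 0.998 for the genes other than Ifit1, and 0.573 for Ifit1.

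Markers of neutrophils, the leukocytes that enter tissue early, also stood higher in some SAH arrays. Of 19 measured neutrophil markers 1 rose, Fcgr3a, an Fc receptor gene also expressed by macrophages (named after its values were seen; 9.78 ± 0.47 in SAH and 7.89 ± 0.07 in sham arteries, SD, n = 3 each, limma adjusted p = 0.0214), and none fell. The median difference of the 19 was 0.68, and 15 were above 0. Of the 19, 2 lay wholly higher in SAH arrays, against 11.4% of all genes. An unadjusted limma p under 0.05 was found for 5 of them, and for 3385 of 18166 genes. Measured from each gene's sham mean, the median of the neutrophil markers was 0.61 in SAH array 1, 0.59 in array 4 and 1.49 in array 5, against -0.41 in sham array 6, -0.44 in array 7 and 0.79 in array 8. S100a9, a neutrophil calcium-binding protein gene, read 9.47, 9.92 and 10.96 in SAH arrays 1, 4 and 5, against 6.68, 7.34 and 10.63 in sham arrays 6, 7 and 8. Csf3r, the receptor gene for the growth factor G-CSF, read 10.65, 9.94 and 11.88 in the SAH arrays, against 8.25, 8.33 and 10.45 in the sham arrays. Sham array 8 was the highest sham array in both genes and overlapped the SAH arrays, while Fcgr3a spread little among the sham arrays. With the mean of the neutrophil markers in each array as a covariate, Rsad2, Cmpk2 and Ifit2 passed, 3 of the 9, where 0.0716% of all genes rose, and the median difference was 2.16. In that fit Mx1 differed by 3.69 ± 0.40 (SE), Mx2 by 2.74 ± 0.50 and Ifit1 by -0.14 ± 0.18.

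The other marker lists had medians nearer 0. None of 18 monocyte and macrophage markers passed by limma (median -0.11, from -1.29 to 1.86). Of these, 9 had an unadjusted p under 0.05, and 3 lay wholly higher and 4 wholly lower in SAH arrays. None of 11 lymphocyte markers passed (median 0.28). All 11 were above 0, 6 lay wholly higher in SAH arrays and 4 had an unadjusted p under 0.05. None of 9 plasmacytoid dendritic cell markers passed (median 0.08). Of these, 4 had an unadjusted p under 0.05, and 1 lay wholly higher and 2 wholly lower in SAH arrays. Over all 18166 genes 3385 had an unadjusted limma p under 0.05. By the same count over all genes, 11.4% lay wholly higher and 15.4% wholly lower in SAH arrays. The labelled tissue was checked against its own markers. Myh11, smooth muscle myosin heavy chain, and Cdh5, the endothelial cadherin gene, were above the array median on all 6 arrays, with means of 12.56 ± 0.09 and 11.66 ± 0.12 in SAH arteries and 12.96 ± 0.13 and 11.05 ± 0.11 in sham arteries (SD, n = 3 each). Cdh5 had the highest difference of the 12 endothelial markers, whose median was -0.17 with 5 of 12 above 0. Of 11 smooth muscle markers (median -0.26) 2 fell, Smtn and Pln, both named after their values were seen, and 9 did not pass. All 11 differed in the direction of lower values in SAH, with 0 above 0. In 9 of the 11 all SAH arrays lay below all sham arrays, against 15.4% of all genes, and 5 had an unadjusted limma p under 0.05. The part of any of these cell types in the rise of the antiviral effectors was not tested.

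**Figure D5:**
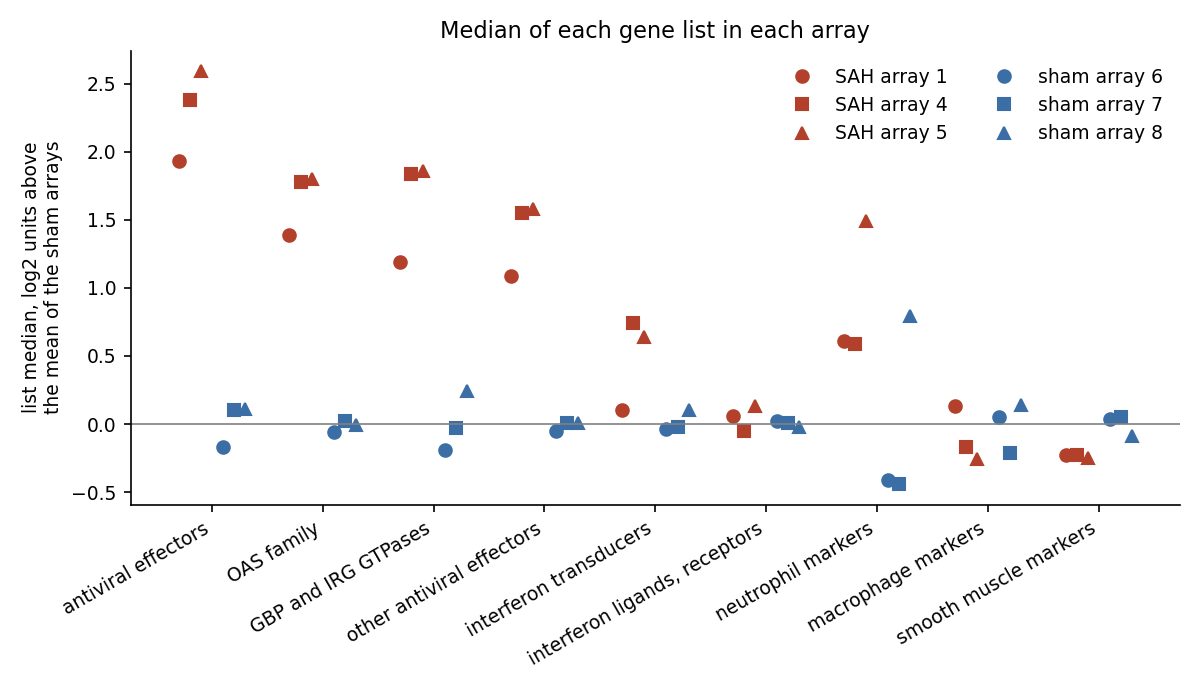
Median of each gene list (x axis) in each array, in log2 units above the mean of the sham arrays (y axis), for SAH arrays (red) and sham arrays (blue). The antiviral effectors stand between 1.93 and 2.59 in the SAH arrays and near 0 in all sham arrays, while neutrophil markers are raised in sham array 8 too.

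Other genes of the interferon pathway were read from the same fit. Of 33 further antiviral effectors 24 rose, none fell and 9 did not pass, with a median of 1.49. Those with the smallest p were Zbp1, which senses nucleic acids in the Z form, Isg15, a ubiquitin-like modifier, and Sp100, a nuclear body protein, with differences of 3.38 ± 0.17 (SE), 3.23 ± 0.20 and 1.52 ± 0.10. Of 11 genes of the OAS family, whose active enzymes make the second messenger of RNase L, 6 rose and 5 did not pass (median 1.72). Those 5 were named after their values were seen. Oas1d, Oas1e, Oas1f and Oas1h lay below the median of their array on all 6 arrays, so a change in them may not be detectable here. Oas1k differed by 1.47 ± 0.38 (SE), and its groups did not overlap. Oas2, Oasl2 and Oasl led by p, at 1.72 ± 0.09, 1.74 ± 0.10 and 2.98 ± 0.25. Of 10 guanylate-binding proteins and immunity-related GTPases 8 rose and 2 did not pass (median 1.58), led by Gbp1, Ifgga4l and Ifi47 at 3.36 ± 0.17, 3.49 ± 0.19 and 1.60 ± 0.17. The median of these lists lay below the 2.37 of the 9 genes, a difference that was not tested. The interferon-induced membrane protein genes Ifitm1, Ifitm2 and Ifitm3, part of the further antiviral effectors and named after their values were seen, did not pass and differed by -0.17 ± 0.16, 0.24 ± 0.14 and 0.39 ± 0.10 (SE).

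Genes that act upstream of these effectors were read in the same way. Of 15 signal transducers 3 rose, none fell and 12 did not pass (median 0.52). The 3 were Irf7, a transcription factor for interferon genes, and Stat2 and Irf9, subunits of the complex that binds the response element. Irf7 read 12.20, 12.64 and 12.67 in the SAH arrays, against 9.97, 10.05 and 9.87 in the sham arrays (2.54 ± 0.15 (SE), limma adjusted p = 0.00221). Stat2 and Irf9 differed by 1.23 ± 0.11 and 0.89 ± 0.10. Of 10 sensors and adaptors of nucleic acid detection 4 rose and 6 did not pass (median 0.41; the list does not hold Rig1, which also rose and is described among the most similar genes), with Dhx58, Tlr3 and Ifih1 at 2.64 ± 0.20, 1.44 ± 0.13 and 2.26 ± 0.30. None of 13 interferon ligand and receptor genes passed by limma (1 had an unadjusted p under 0.05), and their median was 0.02. Of the 13, 5 lay below the median of their array on all 6 arrays, namely Ifnb1, Ifna1, Ifna5, Ifng and Ifnk, so a change in these ligand genes may not be detectable here. Those with the smallest p were brighter. Il10rb, a subunit of the interferon lambda receptor, differed by 0.43 ± 0.13, Ifnl3, an interferon lambda gene, by 0.17 ± 0.09 and Ifngr1, a subunit of the interferon gamma receptor, by 0.15 ± 0.10.

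The genes whose values over the 6 arrays were most like the mean of the 9 antiviral effectors, by Pearson's r, were Sp110, Ifgga4l, Lgals9, Rig1, Irf7 and Rnf114, with r from 0.9978 to 0.9992. These correlations share the split between the groups and describe these 6 arrays only. Sp110, a nuclear body protein gene, read 10.83, 11.11 and 11.23 in the SAH arrays, against 9.05, 9.23 and 9.24 in the sham arrays. As in Rsad2, Cmpk2, Ifit1, Ifit2 and Isg20, SAH array 1 and sham array 6 were the lowest of their groups. Rig1, a cytosolic RNA sensor, differed by 2.36 ± 0.12 (SE; limma adjusted p = 0.00189), Lgals9, the galectin-9 gene, by 1.97 ± 0.15 and Rnf114, a ubiquitin ligase gene, by 1.09 ± 0.12.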

How the data were processed

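The deposited table holds log2 expression values per probe set, which the authors made with Affymetrix Expression Console 1.1.2 and RMA, per the submitters' processing notes. Its settings and any build were not given in the sources used here. No value was normalized again. RMA puts all arrays on nearly 1 distribution, so a general change in RNA amount is not visible. Beside 190 Affymetrix controls there were 36495 probe sets, of which the platform annotation, matched to RefSeq GRCr8 by gene ID, named 1 gene for 18511. The probe set with the highest mean over the 6 arrays stood for its gene.

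All 36495 probe sets entered 1 fit of SAH against sham (limma 3.58.1, R 4.3.3, lmFit and eBayes, two-sided), and p-values were adjusted by Benjamini-Hochberg over all of them, with a threshold of 0.05. The number of arrays limits the precision. Fold values are 2 to the power of a log2 difference. The fit was tested on simulated data. The sources used here give no scan date, and array numbers run with the groups.

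The members, gene lists and alternatives were chosen with earlier results of these data known. By rule, the text names all members, up to 3 genes of each pathway list with the smallest p, the 6 genes most like the members' mean, and Pecam1, Cdh5, Myh11, Acta2, Csf3r and S100a9 among markers. Fcgr3a, Smtn, Pln, Ifitm1, Ifitm2 and Ifitm3 were named outside this rule, after their values were seen. So were the OAS family genes that did not pass and the dim interferon ligand genes. The flanking genes were added after the members' values were known. Pecam1 and Acta2 were not analysed here. No marker of erythroid cells, endothelium, fibroblasts or brain was called by limma. The numbers measured were 5, 12, 10 and 13, with medians of 0.26, -0.17, -0.17 and 0.08. In that order 1, 4, 0 and 2 had an unadjusted p under 0.05, as did 3385 of 18166 genes. Alternatives were leaving out each array or the dim probe sets (kept: above their array's median on at least 3 arrays), repeating quantile normalization, subtracting array medians, trend and robust options of eBayes, array weights, the neutrophil covariate, an adjusted p under 0.10, a minimum log2 difference of 1, and other ways to represent a gene. Promoters of 300 bases came from RefSeq.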

Additional observations from a re-analysis of the deposited data

How the results depend on the processing

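The number of genes called, 235 over all genes, was 672 with dim probe sets left out, 363 with trend and robust options, 373 with array weights, 530 at an adjusted p under 0.10, 155 with a minimum log2 difference of 1 and 13 with the neutrophil covariate. It ran from 29 (without sham array 6) to 670 (without SAH array 1) when an array was left out. The number of antiviral effectors called was 3 with the neutrophil covariate, against 7, and 5 to 8 with an array left out. In the alternatives run, 8 of the 9 kept a positive difference, while Ifit1 differed by -0.14 with the neutrophil covariate. The cause was not tested. Isg20 and Ifi44 also lost their calls with that covariate (limma adjusted p = 0.0737 and 0.0795, with differences of 2.16 and 1.76 against 2.37 and 1.78), as did Mx1 and Ifit3 (0.0737 and 0.0613, with 3.69 and 1.76 against 3.26 and 2.15). Since each measured member had a single probe set, other ways to represent a gene gave the members the same values. The calls in the pathway lists stayed within 1.5 times under the filter, the other normalizations, trend and robust options, and array weights. No paired analysis was possible because the groups share no array numbers. With 3 arrays a group, and with Ifit1 below the median of its array, smaller differences may not be detectable.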
